A study of Oryctolagus cuniculus with 4 samples.

Results

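HBA and HBB2 encode the alpha and beta chains of rabbit haemoglobin, and their transcripts were measured here in ligamentum flavum, the elastic ligament that joins the laminae of neighbouring vertebrae. The probes were those whose design name is a RefSeq transcript of either gene: 3 probes for HBA (NM_001082389) and 1 for HBB2 (NM_001082260), so 4 of the 43603 non-control probes on the array, and 2 of the 1489 genes that RefSeq accessions name there. RefSeq lists HBA1 and HBA2 as other names of HBA, and HBB and HBB1 as other names of HBB2. Near-identical gene copies would hybridise to the same probes, so copies cannot be told apart, and the letters of the probes were not used here.

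Haemoglobin carries oxygen in red blood cells as a tetramer of alpha and beta chains, each holding a haem group. Red cells and their precursors make it in amounts that exceed those of most other transcripts, and the reticulocytes that enter the blood still hold its mRNA. In a bulk piece of ligament, haemoglobin mRNA is therefore widely read as a measure of the blood, and in places near bone of the marrow, that was collected with the tissue. In bulk samples, fewer cells of a type and less RNA per cell cannot be told apart.

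The series compared ligament taken at a level of intervertebral stress concentration (ISC level), at fused levels and at control levels, with 1 single-colour (Cy3) Agilent array for each of 4 groups. One group was L3/4 as the ISC level and another its control; L2/3 and L4/5 made up the remaining groups, as fused levels and as their control. All animals were male rabbits aged 34 weeks, 16 weeks after an operation at 18 weeks that removed muscle over L3/4 and fused L2/3 and L4/5 posterolaterally with instrumentation. The labels attach this same operation to all 4 samples, controls included. The sources used here do not give whether the controls were operated, whether a sample holds RNA of more than 1 animal, or whether tissue of L2/3 and L4/5 was combined. Each group has 1 array, so no value below has an error between animals and no test was possible. A log2 ratio of at least 1 in size (2-fold) serves as a fixed size, not as a threshold of significance.

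All 4 haemoglobin probes were well above background on all 4 arrays, and none was saturated. Each probe had 1 spot per array, for which the scanner software's own error was 10% of the signal, or 0.20 for a log2 ratio of 2 arrays. The 50 probes printed in replicate spots, among those well above background, had a median SD of log2 signal of 0.13, 0.11, 0.11 and 0.098 on the ISC, control L3/4, fused and control L2/3 and L4/5 arrays. Both are technical errors within an array. Levels below are log2 of the background-subtracted signal minus the log2 of that array's 75th percentile, which was a signal of 93.8, 53.4, 85.4 and 72.8 in the same order. Probes differ in brightness for the same amount of RNA, so a level is compared only with the same probe on another array. The share of probes well above background lay between 59.6% and 67.9%. Of 16 ligament and tendon genes, 6 were named on the array, and their summed linear level (relative to the percentile) was 742, 627, 574 and 715, with COL1A2, a type I collagen chain, and OGN, a small proteoglycan, at levels of 7.72 or more on every array. Brighter genes weigh more in that sum. The mean log2 level of the same 6 genes was 4.70, 4.59, 3.79 and 4.91, lowest on the fused array. Between the fused levels and their control, 2 of 5 measured were at least 2-fold lower, BGN at -2.07 and LUM at -1.36. None was 2-fold higher, and 9.12% of all measured genes or transcripts were lower by that much. TNMD, a tendon and ligament marker, was well above background on the other 3 arrays and not on the fused array.

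Both haemoglobin genes were highest at the fused levels and lowest in the control of L2/3 and L4/5. For HBB2 the level was 7.76 at the ISC level, 8.56 in the control of L3/4, 9.17 at the fused levels and 7.11 in the control of L2/3 and L4/5. Its corresponding background-subtracted signals were 20274, 20157, 49216 and 10042. The fused array thus stood above the other 3 and the control of L2/3 and L4/5 below them, while the signals of both L3/4 arrays were nearly equal before scaling. The brightest HBA probe (A_04_P003481), which stands for the gene below, gave levels of 7.76, 8.65, 9.17 and 7.06 in the same order. Its signals were 20375, 21474, 49100 and 9734, the same arrangement as for HBB2.

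The other two HBA probes were arranged alike over the arrays. Probe A_04_P002986 had levels of 7.39, 8.43, 8.89 and 6.76 for the ISC level, the control of L3/4, the fused levels and the control of L2/3 and L4/5. The dimmest HBA probe, A_04_P048372, had levels of 4.25, 5.00, 6.17 and 3.50. All 4 probes therefore had the order fused levels, control of L3/4, ISC level, control of L2/3 and L4/5, from high to low. Over the 4 probes the steps of that order were 0.46 to 1.17 from the fused levels to the control of L3/4, 0.75 to 1.03 from there to the ISC level, and 0.63 to 0.75 from there to the lowest array, each larger than the technical error of 0.20. The step between both L3/4 arrays depends on the scaling, as described for that comparison. Of the 12741 genes or transcripts (features) well above background on all 4 arrays, 458 (3.59%) had this order, and so did 39 (4.40%) of the 886 among them that carry a gene name.

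**Figure D1:**
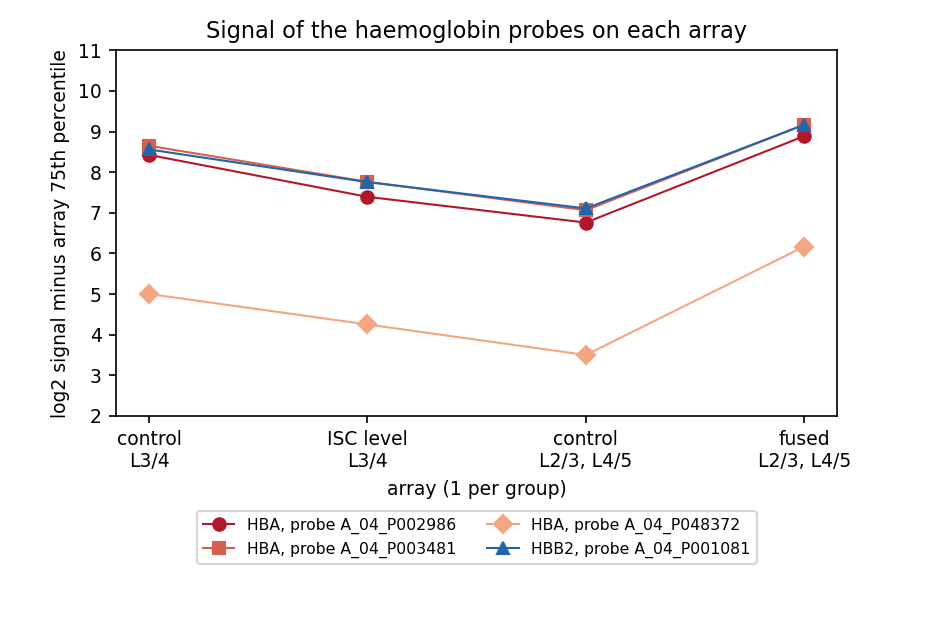
The y axis gives log2 signal minus the log2 of the array's 75th percentile for each of the 4 haemoglobin probes, and the x axis the 4 arrays, 1 per group. Lines join the values of 1 probe; all 4 probes peak on the fused array, at 9.17 for HBB2 and 6.17 for the dimmest HBA probe, and are lowest on the array of its control, where these probes lie at 7.11 and 3.50.

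From the lowest to the highest array HBA spanned 2.10 and HBB2 2.06 on the log2 scale. Over the 12741 features the median span was 0.89, and 8.07% of them spanned as much as HBA and 8.65% as much as HBB2. The 4 probes together took 0.388% of the summed signal of the ISC array, 0.528% of the control L3/4 array, 1.01% of the fused array and 0.220% of the control L2/3 and L4/5 array. The fused array thus had the largest share and the control of L2/3 and L4/5 the smallest, and leaving the globin probes out gave 75th percentiles of 93.7, 53.4, 85.4 and 72.8.

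The comparison of the fused levels with their control asks what differed in ligament of instrumented segments. Both haemoglobin genes were more than 4-fold higher at the fused levels: HBA by a log2 ratio of 2.10 (4.30-fold) and HBB2 by 2.06 (4.18-fold). The 3 HBA probes gave 2.10, 2.13 and 2.67, a mean of 2.30 ± 0.32 (SD over 3 probes, which share a transcript and an array). Among 13717 features measured on both arrays the fused levels were 2-fold or more above the control in 7.84% and below it in 9.12%, around a median of -0.13. Of the 1000 brightest features 3.9% were above it by that much. Both haemoglobin genes lie past that size. A ratio at or above that of HBA was seen in 2.46% of the features, and at or above that of HBB2 in 2.57%. Features equally far below 0 are not in these shares. The share of array signal on haemoglobin probes was 4.57 times as large at the fused levels.

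The ISC level was set against the control of L3/4 to ask what differed in ligament of the segment between the fusions. HBA was lower at the ISC level by a log2 ratio of -0.89, and HBB2 by -0.80, so neither reached 2-fold. The 3 HBA probes gave -1.03, -0.89 and -0.75, a mean of -0.89 ± 0.14 (SD over 3 probes), of which 1 was past 2-fold. Among 13729 features 9.11% were 2-fold or more above the control and 10.5% below it, around a median of -0.16. Of the 1000 brightest features 9.4% were below it by that much. A ratio at or below that of HBA was seen in 13.5% of features, and at or below that of HBB2 in 16.2%. Features equally far above 0 are not in these shares. Both genes thus lie nearer to the bulk of features than in the fused comparison.

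The ratio between both L3/4 arrays was close to 0 before scaling. Without scaling the log2 ratio was 0.0083 for HBB2 and -0.22, -0.08 and 0.06 for the 3 HBA probes, of which only the first was outside the technical error of 0.20. The 75th percentile of the ISC array was 93.8 against 53.4, which lowers every ratio of this pair by 0.81. When the arrays were scaled to their 1000 brightest probes the ratios were -0.42 for HBA and -0.34 for HBB2. With the 137 probes within 2-fold of the HBB2 probe's mean signal they were -0.38 and -0.30, with quantile normalization -0.43 and -0.36, and with cyclic loess -0.24 and -0.15. In each of these settings the brightest HBA probe was lower at the ISC level, and HBB2 was in all but the unscaled signals. The share of array signal gave a log2 ratio of -0.45.

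The controls differed from each other. The control of L3/4 was above the control of L2/3 and L4/5 by a log2 ratio of 1.59 (3.01-fold) for HBA, with the 3 probes between 1.50 and 1.67, and by 1.45 (2.74-fold) for HBB2. Among 13137 features 8.43% were 2-fold or more above and 9.14% below, around a median of 0.08. A ratio at or above that of HBA was seen in 2.56% of features, and at or above that of HBB2 in 3.37%. Features equally far below 0 are not in these shares. Scaled by quantiles, by cyclic loess or to probes as bright as HBB2, the HBB2 ratio was 0.90, 0.93 and 0.96, below 2-fold, while HBA stayed at 1.06 or more in each setting tried. In size the difference between controls thus lies between the ISC ratio and the fused ratio.

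Against the other control array the ISC level was the higher. It was above the control of L2/3 and L4/5 by 0.70 for HBA (0.63 to 0.75 over probes) and 0.65 for HBB2, in a comparison in which 3.56% of 14114 features were 2-fold or more above and 5.02% below. The ISC level therefore lay between both controls, and against their mean its ratio was -0.09 for HBA and -0.08 for HBB2. The fused levels were above both controls: against the control of L3/4 by 0.52 for HBA (0.46 to 1.17 over probes) and 0.61 for HBB2, neither of which is 2-fold, where 11.2% of 13352 features were above by that much and 13% below. That ratio reached 2-fold in 3 of 10 scaling and background settings for HBA and 4 of 10 for HBB2. Among them were the unscaled signals at 1.19 and 1.29. Against the mean of both controls the fused levels were higher by 1.31 for HBA and 1.34 for HBB2. The fused levels against the ISC level gave 1.40 for HBA (1.40 to 1.92 over probes) and 1.41 for HBB2, with 7.75% of 14564 features 2-fold or more above and 6.99% below. These comparisons share arrays and are not separate evidence.

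**Figure D2:**
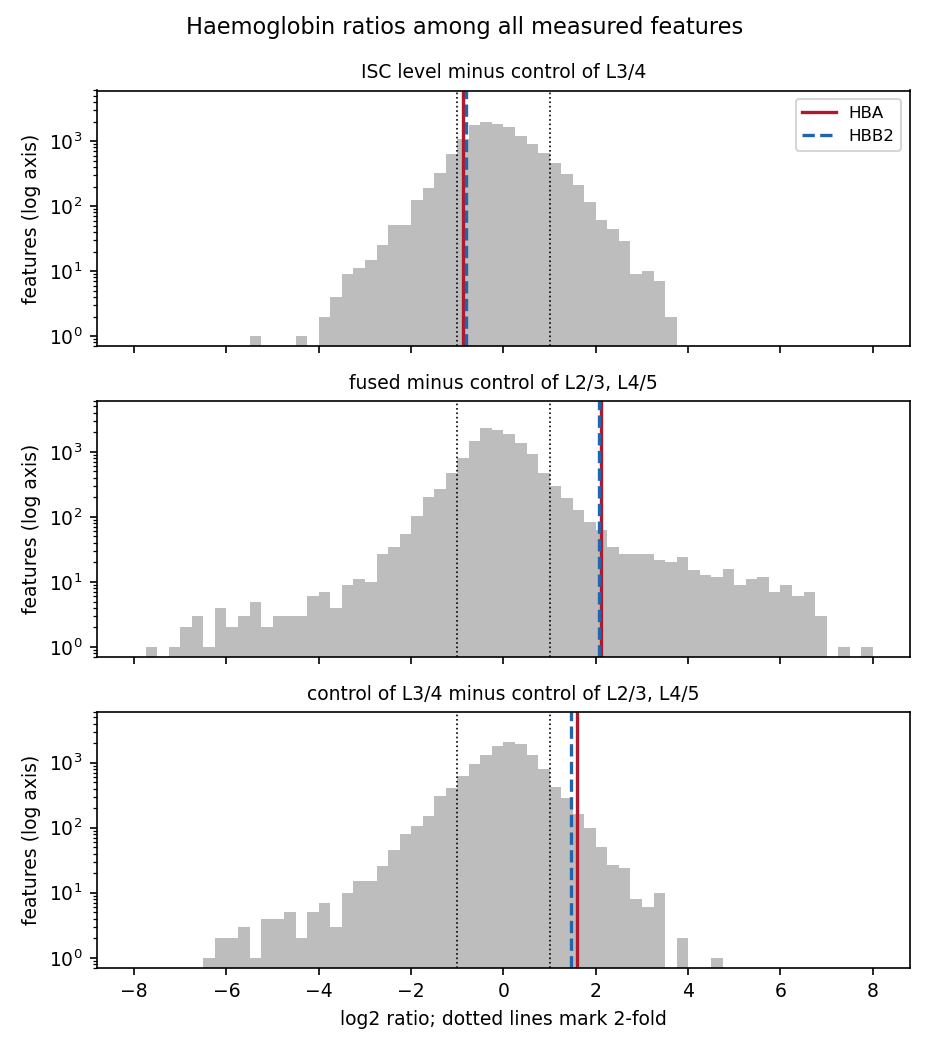
Histograms of the log2 ratio of all features well above background on both arrays, with the number of features on a log axis, for the ISC level minus the control of L3/4, the fused levels minus the control of L2/3 and L4/5, and one control minus the other. The solid and dashed lines are HBA and HBB2, at -0.89 and -0.80, 2.10 and 2.06, and 1.59 and 1.45; dotted lines mark 2-fold.

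**Figure D3:**
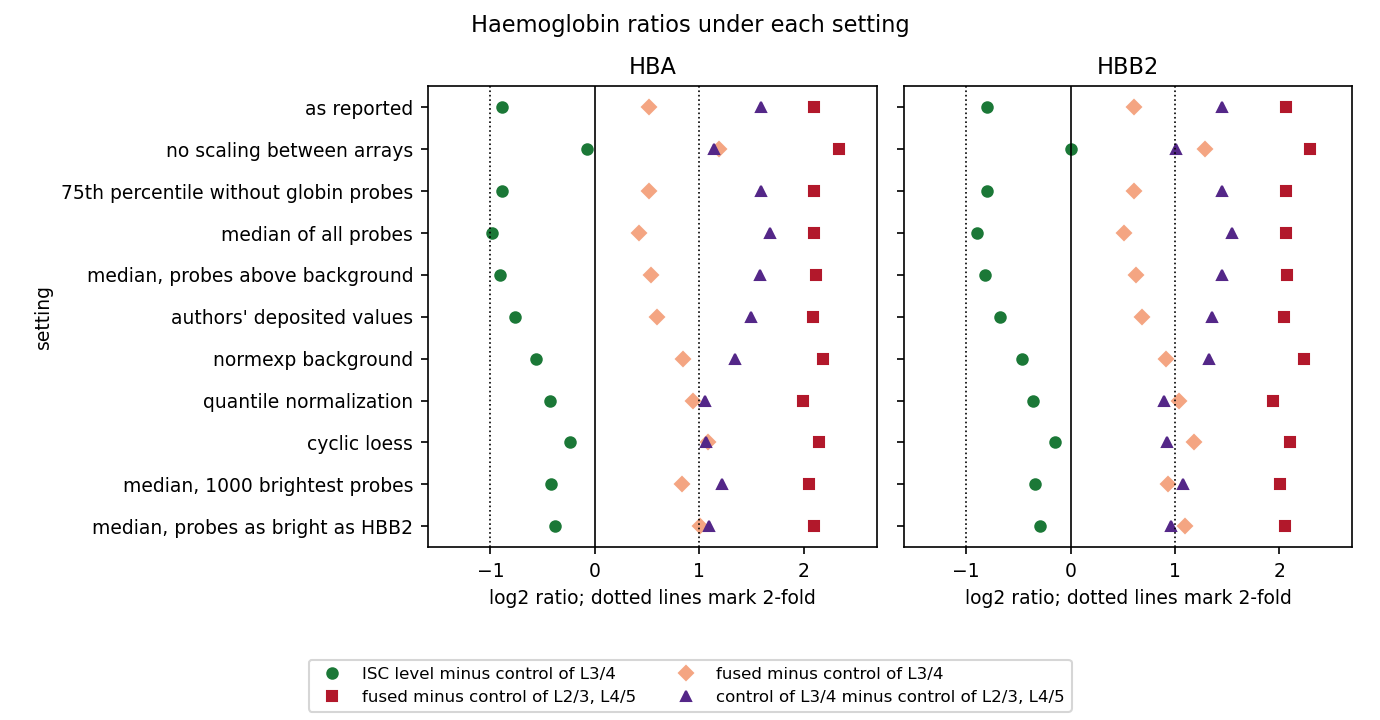
Log2 ratios of HBA (left) and HBB2 (right) for 4 pairs of arrays, with 1 row for each scaling or background setting. The squares (fused levels minus control of L2/3 and L4/5) lie near 2 in every row, while the circles (ISC level minus control of L3/4) run from -0.98 to -0.08 for HBA and end at 0.0083 for HBB2 without scaling.

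Of the 18 genes in the list of globins, 4 were named on the array: HBA, HBB2, HBQ1 and NGB. In the fused comparison HBA and HBB2 were the 2 that were at least 2-fold higher, and none was 2-fold lower. Among all features 7.84% were higher and 9.12% lower by that much. The median of the list was 1.33, which includes the values of HBA and HBB2 themselves. HBQ1, a theta globin of the alpha-globin family, had levels of 0.10 at the ISC level, 1.11 in the control of L3/4, 0.95 at the fused levels and 0.34 in the control of L2/3 and L4/5. Both controls and operated levels thus interleave, with a ratio of 0.60 for fused levels against control, -1.01 for ISC level against control and 0.77 between controls. NGB, neuroglobin, a globin of nerve cells, was close to background, with 1 of its 5 probes measured in the fused comparison at -0.72, the opposite direction to the haemoglobin genes.

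Neighbours of both genes in the genome add 1 more gene with a measured probe. In the order of genes in the RefSeq annotation (assembly mOryCun1.1; the array design uses oryCun2, so no positions are given), HBB2 follows HBE1, HBG2 and LOC100352127 and precedes LOC100351882. Neither HBE1 nor HBG2, the embryonic and fetal beta-like genes by name, had a probe matched by accession, and neither did HBZ0, the zeta gene near HBA. LOC100352127, for which the table gives no gene name, had levels of 2.25 at the ISC level, 2.35 in the control of L3/4, 3.66 at the fused levels and 1.19 in the control of L2/3 and L4/5. This gene was highest at the fused levels and lowest in their control, as both haemoglobin genes were, with ratios of 2.47 for fused levels against control, 1.31 for fused levels against the control of L3/4, and 1.15 between controls. Its ISC ratio was -0.10 and changed sign with the scaling, reaching 0.71 without it. Whether the LOC100352127 probe also binds HBB2 transcript was not tested, so its values may not be separate from those of HBB2. LOC100351882, on the other side, was not well above background on any array.

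Other genes of the red cell were few on this array. Of 39 genes in the list of red cell membrane and cytosol, 6 were named, and of 14 haem synthesis genes, the enzymes and carriers that make haem, none was. SLC4A1, the spectrins and ALAS2, genes typical of red cells and their precursors, were thus not analysed here. In the fused comparison 4 red cell genes were measured, 2 of them at or above 2-fold higher and 1 lower, where 7.84% and 9.12% of all features were, with a median of 1.04 against -0.13 for all features. Over the 10 scaling and background settings 1 to 2 of the 4 were higher and 0 to 1 lower. In the ISC comparison 5 were measured, with 1 at least 2-fold lower, none higher (10.5% and 9.11% of all features) and a median of -0.37, which became 0.44 without scaling.

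BPGM, which makes the 2,3-bisphosphoglycerate that lowers the oxygen affinity of haemoglobin, had levels of 2.67, 2.60, 3.65 and 1.96 for the ISC level, the control of L3/4, the fused levels and the control of L2/3 and L4/5. The fused array was the highest and its control the lowest, as for haemoglobin, with a ratio of 1.69 (1.10 to 1.69 over 4 probes), 1.05 against the control of L3/4 and 0.64 between controls. Its ISC ratio was 0.06, with probes on both sides of 0. EIF2AK1, the haem-regulated kinase that halts globin translation when haem is short, had levels of -0.93, 0.82, 0.46 and -1.38. Its 7 probes gave 1.55 to 2.39 in the fused comparison, but between -2.06 and 1.56 in the ISC comparison and between -0.54 and 2.22 between controls, so the probes disagree there.

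CA2, a carbonic anhydrase of red cells and of several other cell types, was not well above background with any of 5 probes in the control of L2/3 and L4/5. CA2 was at least 5.06-fold higher at the fused levels, which were above the control of L3/4 by a log2 ratio of 1.37. GPX1, a glutathione peroxidase, differed by 0.39 in the fused comparison, and ALOX15, a lipoxygenase of reticulocytes, was not well above background on any array. SLC2A1, a glucose transporter found in many cells, ran the other way, with a ratio of -1.31 in the fused comparison and -2.33 for the fused levels against the control of L3/4. MPP1, a membrane protein of red cells that was in no list and was picked out after its values were seen, had a ratio of 1.96 in the fused comparison (1.96 to 2.28 over 2 probes, and as low as 0.76 in another setting), 1.63 with the control of L3/4 in its place, and 0.22 for the ISC level, where its other probe gave -0.43.

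Of 20 regulators of red cell formation, 2 were named. EPO, the hormone that drives it, was near background, and not well above it on the fused array, where it was at least 1.61-fold lower than on the control array of the same levels. HIF1A, a subunit of the oxygen-sensing transcription factor, had ratios of 0.93 in the ISC comparison and -0.85 in the fused comparison, the reverse of the haemoglobin genes in each.

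The genes that bind haemoglobin, haem or iron outside red cells gave a different arrangement. HP, haptoglobin, which captures free haemoglobin in plasma, had levels of 5.41 at the ISC level, 4.09 in the control of L3/4, 6.25 at the fused levels and 4.54 in the control of L2/3 and L4/5. Both operated levels were above both controls, which haemoglobin was not. Its ratio was 1.71 in the fused comparison (1.70 to 1.71 over 2 probes), 1.32 in the ISC comparison (1.08 to 1.32) and -0.45 between controls. TF, transferrin, the iron carrier of plasma, was 0.82 higher at the fused levels (0.70 to 0.86 over 5 probes), and FTL, the light chain of the iron store ferritin, 0.71 higher, both under 2-fold. ACO1, whose protein also regulates iron-responsive mRNAs, and STEAP2, a metal reductase, had ratios of 1.48 and 2.0 in the ISC comparison, and of -0.51 and -0.92 in the fused comparison. Of 24 genes in this list 9 were named. In the ISC comparison 3 of 6 measured were at least 2-fold higher and 1, ALB, lower, against 9.11% and 10.5% of all features, with a median of 0.68. Over the settings 2 to 3 were higher, the median ran from 0.21 to 1.49, ACO1 from 0.099 to 2.29 and ALB from -2.26 to -0.74. In the fused comparison 1 of 5 was higher, against 7.84% of all features, with a median of 0.71. ALB, serum albumin, was -2.14 in the ISC comparison and not well above background on the fused array or its control.

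**Figure D4:**
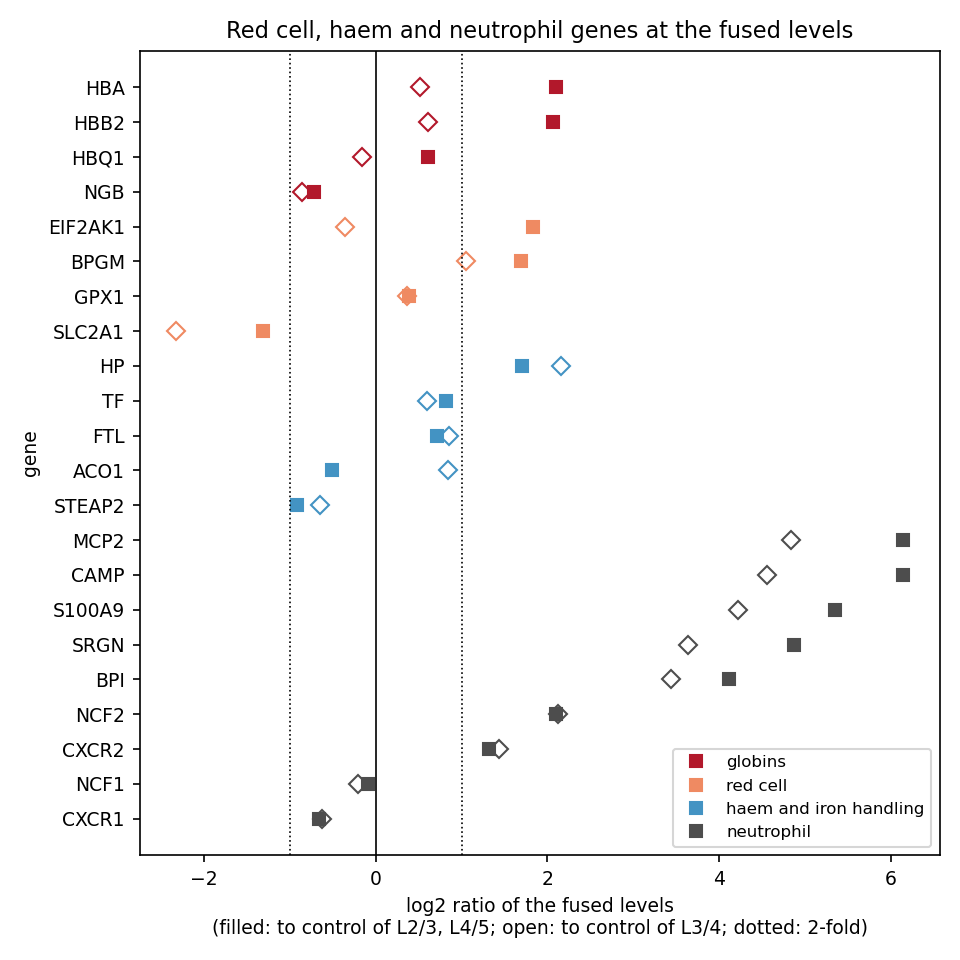
Log2 ratio of the fused levels to the control of L2/3 and L4/5 (filled squares) and to the control of L3/4 (open diamonds) for every measured gene of the globin, red cell, haem and iron, and neutrophil lists. HBA and HBB2 lie at 2.10 and 2.06 (filled) and 0.52 and 0.61 (open), BPGM at 1.69 and 1.05, and MCP2 and CAMP at 6.15 and 6.14 and at 4.84 and 4.56.

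Markers of some other cell types, neutrophils among them, were also higher at the fused levels than in their control, while those of others were not. Their part in the haemoglobin values was not tested. Of 29 genes in the neutrophil and granulocyte list 13 were named, and in the fused comparison 7 of 9 measured were at least 2-fold higher and none lower, against 7.84% and 9.12% of all features, with a median of 4.12. Over the settings 6 to 7 were higher and the median ran from 2.71 to 4.35. The largest were MCP2, a defensin peptide, at 6.15, CAMP, the cathelicidin precursor, at 6.14, and S100A9, a calcium-binding protein of neutrophils, at 5.35. Against the control of L3/4 the same count was 7 of 9 (5 to 7 over the settings, and 11.2% of all features), with a median of 3.44, where both haemoglobin genes were under 2-fold. The summed linear level of the 13 genes was 11.3 at the ISC level, 17.2 in the control of L3/4, 321 at the fused levels and 9.28 in the control of L2/3 and L4/5. Brighter genes weigh more in that sum. The mean log2 level of the same 13 genes was -1.20, -1.24, 1.48 and -1.66, so the fused array was highest and its control lowest by both measures, while the order of both L3/4 arrays differs between them. In the ISC comparison the median of the list was -0.76, with S100A9 at -1.13, but 0.06 without scaling.

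Of 14 named genes in the skeletal muscle list of 21, the levels ran opposite to haemoglobin between the fused levels and their control. All 12 measured lay below the control by 2-fold or more, as 9.12% of all features did, with a median of -5.87 (-5.94 to -3.85 over the settings), led by ACTN3, a fast-fibre actinin, at -7.18, PYGM, muscle glycogen phosphorylase, at -6.74, and MYL1, a fast myosin light chain, at -6.65. The control of L3/4 was at least 2-fold lower than the control of L2/3 and L4/5 in 11 of 11, as 9.14% of all features were, with a median of -5.08. The summed linear level was 28.1, 28.1, 14.7 and 871 over the ISC level, the control of L3/4, the fused levels and the control of L2/3 and L4/5. The array lowest in haemoglobin was thus the one highest in muscle genes. The other 3 arrays had muscle sums of 14.7 to 28.1 and differed from each other in haemoglobin. Whether muscle content had a part in any of the haemoglobin values was not tested.

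Of 26 genes in the endothelium and vessel wall list 12 were named, and in the fused comparison 2 of 10 measured were at least 2-fold higher, where 7.84% of all features were: VCAM1, a leukocyte adhesion molecule, at 2.21 and THBD, thrombomodulin, at 1.03. DES, desmin, which muscle also makes, was past 2-fold the other way at -4.28, and the median was 0.25 against -0.13 for all features. In the ISC comparison 5 of 11 were at least 2-fold lower (1 to 5 over the settings) and 1 higher, against 10.5% and 9.11% of all features, with a median of -0.72, among them SOX17, an endothelial transcription factor, at -2.57 and MYH11, a smooth muscle myosin, at -2.19. Without scaling that median was 0.09. The summed linear level was 36.7, 69.8, 56.3 and 51.5 over the ISC level, the control of L3/4, the fused levels and the control of L2/3 and L4/5.

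The remaining lists held few measured genes. Of 16 platelet genes 3 were named and 1 was measured in the fused comparison, ITGB3, an integrin chain, at 0.07, while CLEC1B, a platelet receptor, was at least 3.55-fold higher at the fused levels. Of 4 measured monocyte and macrophage genes 1, CD14, was at least 2-fold higher at 1.07 and 1, LGALS3, lower at -1.41. That size was reached by 7.84% of all features above and 9.12% below. Over the settings 0 to 2 of these genes were higher and 0 to 1 lower. Of 5 measured lymphocyte genes 1, PRKCB, was higher at 3.52, against 7.84% of all features. PRKCB is a protein kinase C that other blood cells also make, and its ratio ran from 1.44 to 3.75 over the settings. Only 1 of its 6 probes was well above background on the ISC array, and likewise on the control L2/3 and L4/5 array. In the ISC comparison PRKCB was -2.58 (-2.68 to -1.18 over the settings). There 3 of 6 lymphocyte genes were at least 2-fold lower, against 10.5% of all features. That count was 1 to 3 over the settings, and the median of -0.87 became -0.05 without scaling. Of 5 measured adipocyte genes 4 were at least 2-fold higher at the fused levels, against 7.84% of all features and 2 to 4 genes over the settings, with a median of 1.32, PPARG, the adipocyte nuclear receptor, at 2.63 and LPL, lipoprotein lipase, at 2.55. The summed linear level of the adipocyte genes was 8.07, 5.45, 20.8 and 6.87, also highest on the fused array.

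Genes with a profile over the 4 arrays most like that of haemoglobin were ranked by the root mean square (RMS) difference between centred log2 profiles, over 4 arrays and among the 12741 features. The reference was the mean profile of HBA and HBB2, so both lie equally far from it by construction, at 0.025. The dimmest HBA probe lay at 0.25, and the median feature at 0.89. Within 0.25 lay 32 other features (0.251%), of which 3 are named. INMT, an amine methyltransferase, was the nearest of all features at 0.052, with levels of -1.66, -0.87, -0.33 and -2.28 for the ISC level, the control of L3/4, the fused levels and the control of L2/3 and L4/5. S100B, a calcium-binding protein of glia and fat cells, followed at 0.22, AHR, a ligand-activated transcription factor, at 0.24, RLA-DMA, a class II antigen-loading chain, at 0.25, and HMGB2, a chromatin protein of dividing cells, at 0.27.

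AZIN2, an antizyme inhibitor of polyamine metabolism, lay at 0.30, SLC1A5, a glutamine transporter, and LOC100352127, the neighbour of HBB2 described above, at 0.31, STAG2, a cohesin subunit, at 0.32, and ADIPOR1, an adiponectin receptor, at 0.35. Over the 4 probes of ADIPOR1 the distance ran from 0.27 to 0.92, so its place depends on the probe. BPGM was the named gene of rank 12 at 0.37 and EIF2AK1 that of rank 14 at 0.37, while HBQ1 had rank 47 at 0.53. With quantile normalization 7 of these 10 genes were again among the 10 nearest, AZIN2 came first at 0.071, INMT had rank 5 at 0.21, and BPGM and MPP1 were in the list. Over the 10 scaling and background settings the fused ratio of INMT ran from 0.61 to 2.18, and that of HBA from 1.99 to 2.33. With 4 arrays, a small distance is a description and shows no shared source.

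**Figure D5:**
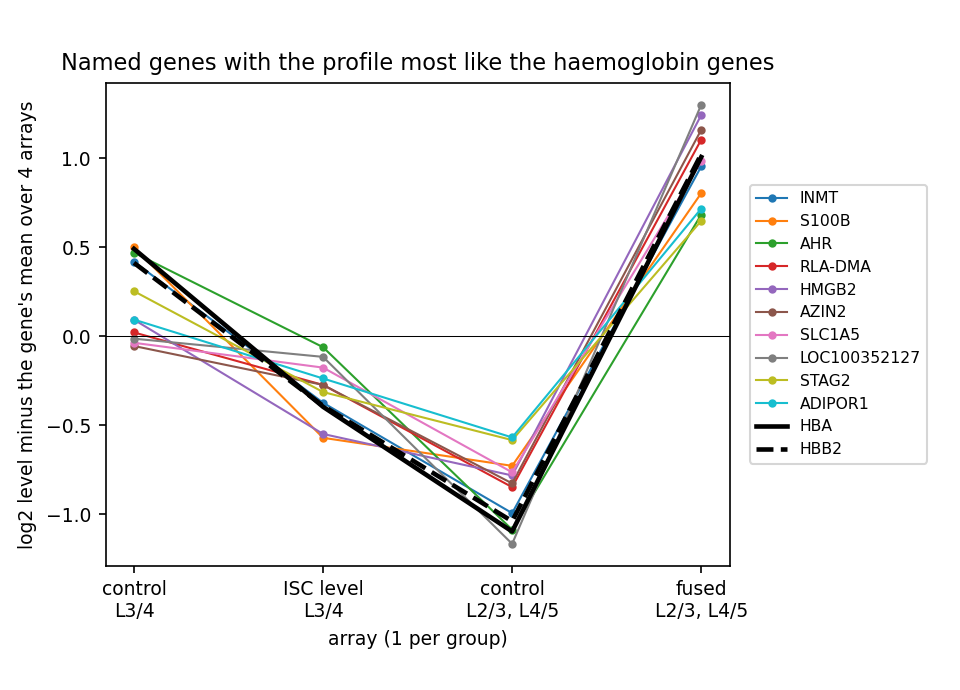
Centred log2 levels (level minus the gene's mean over the 4 arrays) of HBA and HBB2 (thick lines) and of the 10 named genes nearest to them, on each of the 4 arrays. The 10 genes share the peak on the fused array and the trough in the control of L2/3 and L4/5, while they part on the L3/4 arrays, where LOC100352127 lies at -0.12 and -0.01 and HBA at -0.40 and 0.49.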

How the data were processed

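Scanner files were deposited for 4 arrays on 1 slide. The submitters' processing notes name Agilent Feature Extraction 12.0.3. Total RNA (20 ng) was labelled as Cy3 cDNA per the labels. The deposited intensity had its background subtracted and a spatial trend removed, array by array and without scaling between them, per the file headers. The 0 or 1 marks (other values) for saturation, background and outliers are also as deposited. The authors' deposited value table equals these intensities times 1 factor per array (23.3, 37.5, 24.7 and 29.3); how the factors were chosen is not given in the sources used here. It served as an alternative.

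From these, log2 of the intensity minus the log2 of the array's 75th percentile over non-control spots was computed (pandas 2.3.3), leaving out 3 to 7 marked spots per array and averaging spots of 1 probe. A gene was represented by its probe with the highest mean signal. A feature is a gene named by RefSeq accession (3792 probes) or else 1 accession or probe name. Ratios were counted only where both arrays were well above background. An "at least" fold sets the bright level against the dim array's lowest signal well above background, or the dim probe's own if higher. Quantile, cyclic loess and normexp (offset 50) alternatives used limma 3.58.1 in R 4.3.3. The counting step was checked on simulated data. With 1 array per group there are no p-values, and precision is limited by that number.

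The members and the 13 gene lists (274 symbols, 87 named on the array) were chosen with earlier results of these data known. Named genes are all measured members of the globin, red cell, regulator and haem and iron lists, up to 3 of each other list with the largest ratio, and the 10 nearest profiles, some left out for length.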

Additional observations from a re-analysis of the deposited data

Results flagged for a closer look

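The log2 ratio to the matched control had opposite signs at the fused levels and at the ISC level. For HBA it was 2.10 at the fused levels and -0.89 at the ISC level, a difference of 2.99, and for HBB2 it was 2.06 and -0.80, a difference of 2.87. Each rests on 1 array per group and the difference was not tested. The controls differ by 1.59 and 1.45, and with the mean of both controls in place of each matched control the ratios were 1.31 and -0.09 for HBA and 1.34 and -0.08 for HBB2.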

How the results depend on the processing

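The fused ratio stayed at least 2-fold in 14 of 14 alternatives for HBA and 11 of 11 for HBB2. For HBA the probe with the lowest ratio was the reported probe itself, so that alternative could not differ. Leaving the globin probes out of the percentile could hardly move either gene. Outside the technical error the fused ratio moved for HBA to 2.67 (highest probe), 1.31 (mean of both controls) and 2.33 (no scaling). For HBB2 it moved to 1.34 and 2.29 in the latter pair. The ISC ratio reached 2-fold in 1 of 14 and 0 of 11 alternatives. For HBA and HBB2 it was -0.43 and -0.36 with quantile normalization, -0.24 and -0.15 with cyclic loess, -0.57 and -0.46 with normexp, -0.094 and -0.078 against the mean of both controls, -0.076 and 0.0083 without scaling, -0.42 and -0.34 scaled to the 1000 brightest probes, and -0.38 and -0.30 scaled to probes as bright as HBB2. The ratio between controls was 1.06 and 0.90 (quantile), 1.06 and 0.93 (loess), 1.14 and 1.01 (no scaling), 1.22 and 1.08 (1000 brightest), 1.09 and 0.96 (as bright as HBB2), and for HBA 1.34 with normexp. The last 3 scalings named for the ISC ratio were chosen after seeing the data. Counts of features at least 2-fold apart changed most with 2 settings. Required above background on 1 array only, they were 2686 higher for the ISC comparison, 2113 higher and 1917 lower for the fused comparison, and 1934 and 2284 between controls. With normexp they were 347 and 176, 443 and 262, and 145 and 276 in the same order. Of all calls, 46.5% were higher in the ISC comparison, against 58.9% in the authors' deposited values, 66.3% with normexp and 94.5% without scaling. That share was 46.2% in the fused comparison, 62.8% with normexp and 65.3% without scaling, and 48.0% between controls, 34.4% with normexp and 14.9% without scaling. Without scaling the median of all features in the ISC comparison was 0.65, not -0.16. The cause of these changes was not tested. No paired analysis was possible because each group has 1 array. With no replicates, no sample could be left out. Signal over background limits the dim list genes. Normexp background correction also moved the ISC ratio of both haemoglobin genes and the ratio between controls of HBA, as given above.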
